A study of Homo sapiens with 40 samples.

Results

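The genes described here are the 3 cytochrome P450 genes of the CYP1 family, CYP1A1, CYP1A2 and CYP1B1, together with CYP1B1-AS1, a long non-coding RNA transcribed from the strand opposite CYP1B1. They were chosen by gene name, and are 4 of 56568 named genes in the files, with 53 of 234960 transcripts. All 40 libraries came from HepaRG (HPR 116), a human liver cell line bought in the differentiated state, in which hepatocytes grow beside primitive biliary cells. Every culture received test medium with 2% serum and 1% DMSO from day 8 to day 14. Solvent control cultures, PCB 126 at 100 pM, 10 nM or 1 µM, glyphosate at 10 µg/L, 1 mg/L or 0.1 g/L, and the herbicide product Roundup at 10 µg/L had 5 libraries each. All are 1 cell line, so the replicates are not separate donors, and no label says that they came from separate cultures. The p-values therefore measure the spread between these libraries, which may be technical.

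CYP1 enzymes are haem proteins of the endoplasmic reticulum that oxidise planar aromatic compounds. Their genes are the best known targets of the aryl hydrocarbon receptor (AhR), a transcription factor that binds dioxin-like compounds such as the coplanar PCB 126, pairs with ARNT and recognises a short DNA element with the core GCGTG. In liver CYP1A2 is the main constitutive member, whereas CYP1A1 is low until it is induced, and CYP1B1 is better known from tissues outside the liver.

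The 8 hepatocyte markers (ALB, APOA1, APOB, TTR, SERPINA1, TF, FGB and CYP3A4) were all detected, with a summed level between 14590 and 21270 FPKM (fragments per kilobase of transcript, scaled to the mapped fragments of the library) in the controls. The 4 biliary markers summed to between 195 and 402 FPKM and the 2 blood markers, PTPRC and HBB, to at most 0.180 FPKM. The hepatocyte sum was lower at 1 µM PCB 126, between 5693 and 14480 FPKM, with no overlap with the controls (exact permutation test, two-sided, p = 0.00794, n = 5 per group), the biliary sum was between 103 and 200 FPKM, and the sum of 5 mesenchymal markers was between 38.2 and 175 FPKM against between 35.2 and 81.5 FPKM. The largest parts of the hepatocyte sum were ALB and SERPINA1, with means of 5570 and 2280 FPKM at 1 µM against 11200 and 4210 FPKM. CYP3A4 had a higher mean at 1 µM, 4.22 against 3.08 FPKM, and the other hepatocyte markers had lower means. APOA1, APOB, SERPINA1 and CYP3A4 overlapped with the controls. Most of the biliary sum was KRT19, between 189 and 391 FPKM in the controls and between 97.9 and 197 FPKM at 1 µM. The mesenchymal markers did not move together. LUM and COL1A1 had higher means at 1 µM, at 115 and 4.02 FPKM against 50.2 and 2.01 FPKM. COL3A1, ACTA2 and VIM had lower means, at 0.576, 0.553 and 0.0925 FPKM against 12.5, 2.37 and 0.137 FPKM. In these bulk libraries fewer cells of a type cannot be told apart from less RNA per cell. The part of this shift in the results at 1 µM was not tested. On the first principal component of the transcripts tested 5 of the 20 libraries with PCB 126 or solvent alone stood apart from the rest, namely control replicate 5, 10 nM replicates 3 and 5, and 1 µM replicates 1 and 5. Without these 5 all 4 genes still passed the test at 10 nM, with limma adjusted p between 0.00288 and 0.0326, and at 1 µM, between 0.000101 and 0.0106.

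CYP1A1 and CYP1A2 lie head to head on chromosome 15, CYP1A1 on the minus strand and CYP1A2 on the plus strand, with 23233 bases between the transcripts' 5′ ends in the files (GRCh38). Their start regions are shown because both genes were the most strongly changed of the 4. Each sequence is the 250 bases before the RefSeq start (GRCh38.p14), read 5′ to 3′ on the gene's own strand. Capitals mark the core GCGTG on either strand and the TATA element TATAAA on the gene's strand.

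CYP1A1, chr15:74725529-74725778, minus strand: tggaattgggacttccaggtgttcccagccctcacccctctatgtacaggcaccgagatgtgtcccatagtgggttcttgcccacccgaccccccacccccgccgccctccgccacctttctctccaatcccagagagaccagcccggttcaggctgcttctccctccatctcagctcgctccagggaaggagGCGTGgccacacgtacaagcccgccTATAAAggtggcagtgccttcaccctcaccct

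CYP1A2, chr15:74748595-74748844, plus strand: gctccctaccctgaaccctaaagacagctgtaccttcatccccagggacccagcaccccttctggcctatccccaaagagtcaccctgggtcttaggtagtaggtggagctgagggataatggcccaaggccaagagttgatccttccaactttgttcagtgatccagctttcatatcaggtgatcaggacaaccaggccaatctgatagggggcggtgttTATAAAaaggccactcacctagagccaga

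Both windows held a TATAAA, 32 bases before the start of CYP1A1 and 29 bases before that of CYP1A2, which 6.8% of 35116 promoter windows of this length hold on the gene's strand. The CYP1A1 window held 1 GCGTG and the CYP1A2 window 0, against 32.2% of all windows with at least 1. In the 2000 bases before the CYP1A1 start there were 11 cores, or 5.5 per 1000 bases. The 2000 bases before the CYP1A2 start held 1 core. Between the CYP1A1 and CYP1A2 starts there were 34, or 1.46 per 1000 bases. Chromosome 15 as a whole held 0.628 per 1000 bases. It is a low yardstick, since the 35116 promoter windows held a mean of 0.478 cores each in a far shorter stretch. Of the 11 cores 5 matched the longer form TNGCGTG, where N is any base, and the 1 before CYP1A2 did not. The 300-base window with the most cores, 5, follows, with cores on either strand in capitals and so written CACGC where they lie on the other strand.

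CYP1A1 upstream window, chr15:74726504-74726803 (GRCh38), minus strand: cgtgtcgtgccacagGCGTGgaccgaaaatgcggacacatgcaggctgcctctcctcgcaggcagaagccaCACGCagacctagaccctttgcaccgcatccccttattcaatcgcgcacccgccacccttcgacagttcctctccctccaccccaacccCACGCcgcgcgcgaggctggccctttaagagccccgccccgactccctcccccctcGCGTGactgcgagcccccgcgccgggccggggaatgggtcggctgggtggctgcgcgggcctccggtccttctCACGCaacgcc

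These 5 cores lay between 986 and 1260 bases before the CYP1A1 start, and 2 of them matched TNGCGTG. A match of letters is not a measured binding site, and the RNA libraries hold no measure of binding.

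CYP1A1 was low or listed at 0 without PCB 126 and among the most changed genes with it. The summed level of its 10 named transcripts was 7.69, 3.76, 0.175, 0 and 0 FPKM in control replicates 1 to 5. At 100 pM it was 71.0, 36.4, 3.21, 1.09 and 319 FPKM. At 10 nM it was 377, 349, 92.1, 228 and 292 FPKM. At 1 µM it was 85.2, 251, 215, 389 and 234 FPKM. Every library at 10 nM and 1 µM lay above every control, whereas at 100 pM 3 of 5 libraries did and replicates 3 and 4 lay inside the control range. The log2 fold change was taken after adding 1 to each FPKM, so changes of low genes come out smaller than they were, and it was 6.80 ± 0.91 (SE) at 10 nM and 6.61 ± 0.91 at 1 µM, with adjusted p of 0.000411 and 7.44e-05 by limma over 9755 genes (n = 5 per group). Of those genes 0.144% passed the threshold of 0.05 in the higher direction at 10 nM and 0.646% at 1 µM.

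CYP1A2, which metabolises caffeine and many drugs, is assembled as 1 transcript and behaved much as its neighbour did. It was 1.12, 1.73, 1.32, 0.497 and 0.246 FPKM in the controls. At 100 pM it was 15.9, 11.6, 1.98, 1.85 and 208 FPKM, at 10 nM 335, 398, 78.2, 233 and 133 FPKM, and at 1 µM 47.1, 168, 154, 260 and 142 FPKM. All 3 concentrations lay wholly above the controls, although 100 pM replicates 3 and 4 exceeded the highest control only narrowly. The log2 fold change was 6.73 ± 0.76 at 10 nM (limma, adjusted p = 3.27e-05) and 6.16 ± 0.76 at 1 µM (adjusted p = 2.29e-05). CYP1A2 had the smallest p-value of all genes tested at 10 nM.

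CYP1B1, which oxidises oestradiol and polycyclic hydrocarbons, started from a higher level and rose less. The controls held 25.1, 15.4, 12.2, 11.6 and 7.47 FPKM, the 100 pM libraries 53.1, 28.65, 20.15, 30.6 and 37.9 FPKM, the 10 nM libraries 158, 52.0, 38.2, 109 and 373 FPKM, and the 1 µM libraries 168, 59.6, 52.0, 227 and 27.9 FPKM. All libraries at 10 nM and 1 µM lay above the controls, 1 µM replicate 5 only just. The log2 fold change was 2.89 ± 0.53 at 10 nM (limma, adjusted p = 0.00841) and 2.51 ± 0.53 at 1 µM (adjusted p = 0.00797). Both calls were lost when all genes above 0 were tested without the variance filter, with adjusted p of 0.203 and 0.0939, and with an unmoderated linear model, with adjusted p of 0.115 and 0.0617.

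By named transcripts CYP1B1-AS1 was the lowest of the 4 at 10 nM and 1 µM and the only one whose mean was higher at 1 µM than at 10 nM. Its 35 named transcripts, of which 10 are listed at 0 in all 40 libraries, summed to 2.75, 1.43, 1.795, 0.787 and 1.31 FPKM in the controls and to 3.32, 3.15, 2.27, 3.21 and 7.00 FPKM at 100 pM. They summed to 14.1, 10.2, 3.435, 7.75 and 10.4 FPKM at 10 nM and to 21.3, 15.4, 16.6, 18.3 and 9.63 FPKM at 1 µM. The 10 nM and 1 µM libraries lay above all controls. The log2 fold change was 1.89 ± 0.31 at 10 nM (limma, adjusted p = 0.00274) and 2.72 ± 0.31 at 1 µM (adjusted p = 1.04e-05). With all transcripts assembled at its locus counted, CYP1B1 also had a higher mean at 1 µM, 223 FPKM against 193 FPKM at 10 nM.

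**Figure D1:**
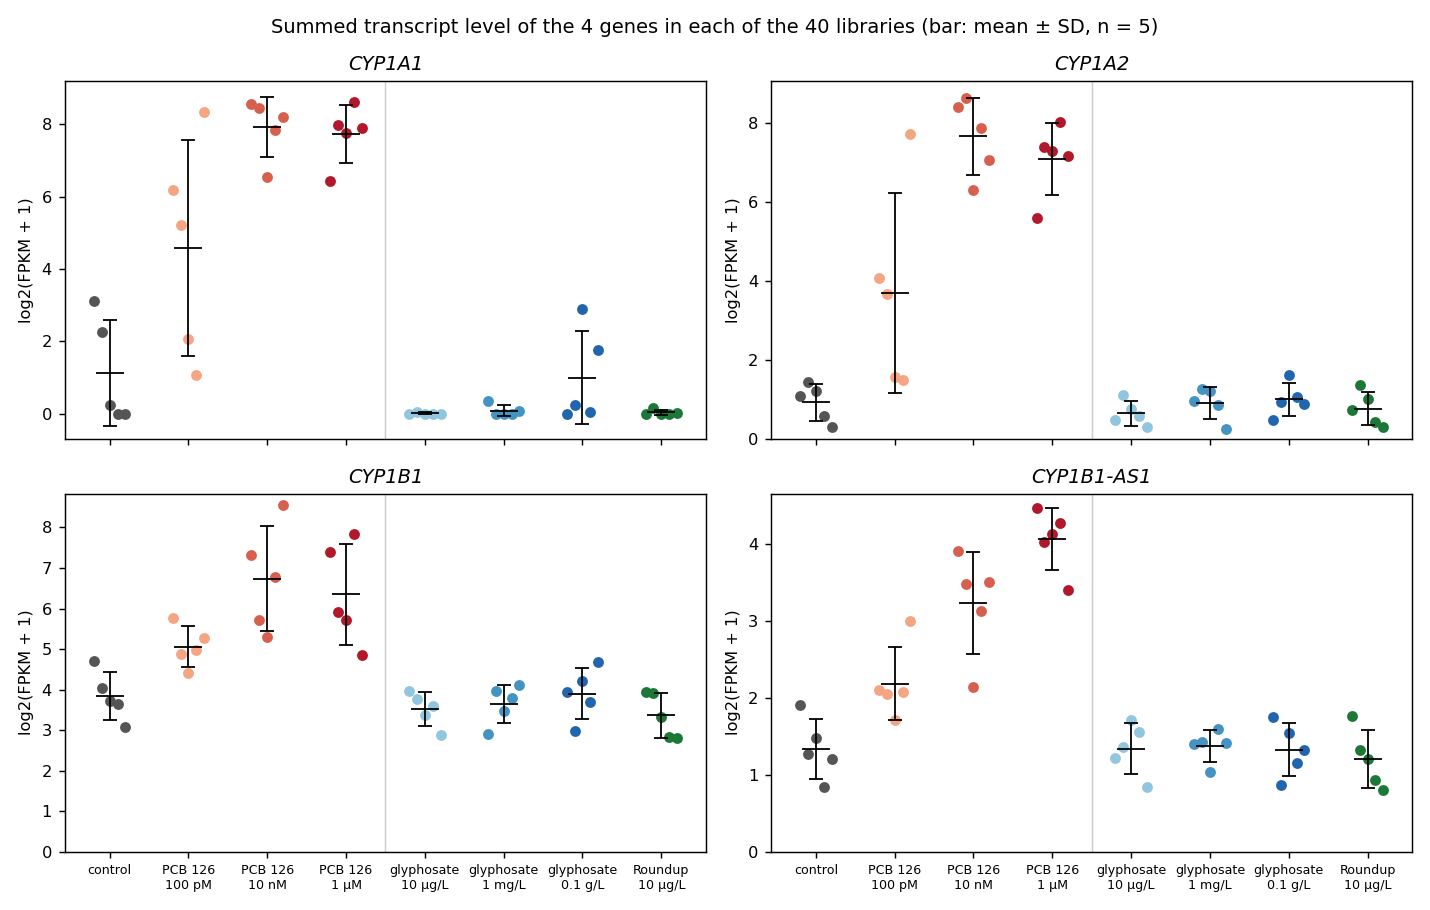
Level of each gene as log2(FPKM + 1), summed over its named transcripts, in 5 libraries (points) of each of 8 groups along the horizontal axis, with mean and SD as black bars. All 4 genes lie above the controls in every library at 10 nM and 1 µM PCB 126, the 100 pM libraries spread upwards from in or just above the control range, and the glyphosate and Roundup groups overlap the controls.

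At both upper concentrations 4 of 4 genes passed the test and 4 of 4 did not overlap with the controls, beside 0.267% of all tested genes without overlap in the higher direction at 10 nM and 0.707% at 1 µM. The median log2 fold change of all tested genes was -0.21 at 10 nM and -0.26 at 1 µM. At 100 pM 0 of the 4 genes passed, with an adjusted p of 1 for each and 0% of tested genes passing, while 116 genes had an unadjusted p under 0.05. All 4 were among those, with unadjusted p of 0.000854 for CYP1A1, 0.00113 for CYP1A2, 0.0289 for CYP1B1 and 0.0113 for CYP1B1-AS1, and exact permutation p of 0.0556, 0.00794, 0.0159 and 0.0159 in the same order. By size CYP1A1, at 3.45 ± 0.91, and CYP1A2, at 2.78 ± 0.76, were ranked 1 and 2 of the 9755 genes at 100 pM. CYP1B1 stood at 1.22 ± 0.53 and CYP1B1-AS1 at 0.85 ± 0.31. CYP1A2 was the only 1 of the 4 whose 100 pM libraries did not overlap with the controls, beside 0.113% of all tested genes.

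**Figure D2:**
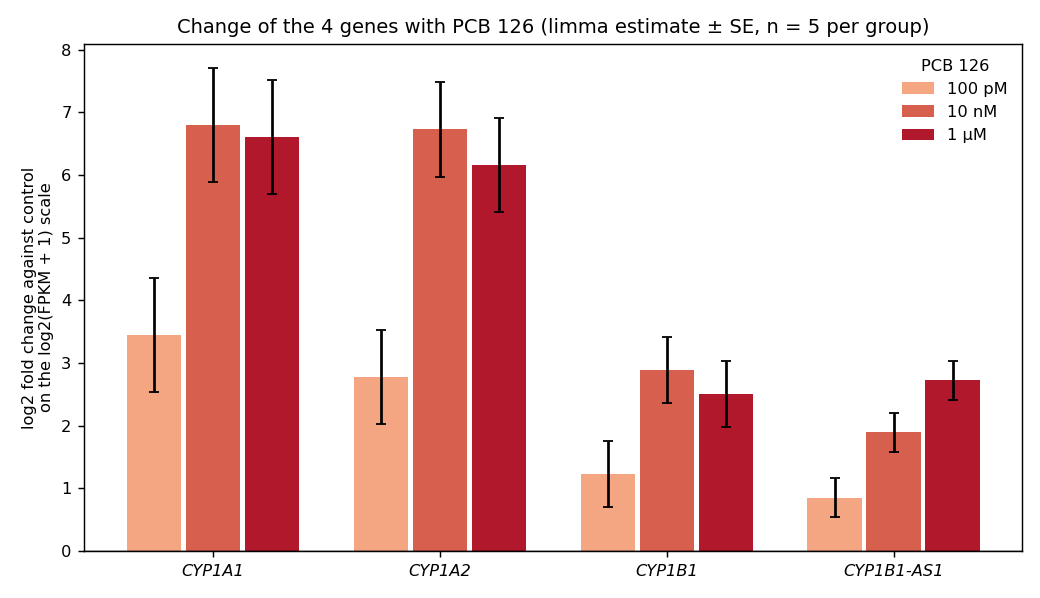
Log2 fold change against control on the log2(FPKM + 1) scale (bars, limma estimate, error bars ± SE, n = 5 per group) for each gene at 3 concentrations of PCB 126. CYP1A1 and CYP1A2 reach between 6.16 and 6.80 at 10 nM and 1 µM, and CYP1B1 and CYP1B1-AS1 between 1.89 and 2.89.

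On the FPKM scale the spread of CYP1A1 and CYP1A2 at 100 pM rested largely on replicate 5, which held 319 FPKM of CYP1A1 and 208 FPKM of CYP1A2. Without it the mean of CYP1A1 was 27.9 ± 32.9 FPKM (SD, n = 4) in place of 86.2 ± 133 FPKM (n = 5), and that of CYP1A2 was 7.85 ± 7.07 FPKM in place of 48.0 ± 89.9 FPKM. The SD of CYP1B1 was larger without it (33.1 ± 14.05 FPKM) than with it (34.1 ± 12.35 FPKM), and CYP1B1-AS1 was 2.99 ± 0.483 FPKM without and 3.79 ± 1.84 FPKM with it. The step from 100 pM to 10 nM did not pass for any gene, with log2 differences of 3.35 ± 0.91 for CYP1A1, 3.95 ± 0.76 for CYP1A2, 1.67 ± 0.53 for CYP1B1 and 1.05 ± 0.31 for CYP1B1-AS1, and limma adjusted p between 0.177 and 0.675. By exact permutation tests of the single genes, two-sided, the same steps gave p between 0.0159 and 0.0397. No tested gene passed in this step by limma (0%), where 558 had an unadjusted p under 0.05. Without 100 pM replicate 5 the steps of CYP1A1 and CYP1A2 passed, at 4.29 with an adjusted p of 0.0391 and at 4.95 with an adjusted p of 2.41e-05. Without 10 nM replicate 3 that of CYP1A2 also passed, with an adjusted p of 0.0403. These were the highest library at 100 pM and the lowest at 10 nM, so leaving either out widens the step by construction. Of 10 fits with 1 library left out, 1 called the step of CYP1A1 and 2 that of CYP1A2. In the others the limma adjusted p reached 0.929 and 0.569.

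From 10 nM to 1 µM the log2 difference was -0.19 ± 0.91 for CYP1A1, -0.57 ± 0.76 for CYP1A2 and -0.39 ± 0.53 for CYP1B1, each smaller than its SE. For CYP1B1-AS1 it was 0.83 ± 0.31, with an unadjusted p of 0.0129 and an adjusted p of 1 by limma, an exact permutation p of 0.0317, and 4 of 5 libraries at 1 µM above every library at 10 nM. In this step 0% of tested genes passed and 324 had an unadjusted p under 0.05.

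CYP1A1 and CYP1A2 had a ratio that varied less between libraries at the upper 2 concentrations than at 100 pM. This difference in spread was not tested, and 100 pM replicates 3 and 4 held low levels of both genes. Their ratio of FPKM was 4.46, 3.13, 1.62, 0.59 and 1.53 in 100 pM replicates 1 to 5, and lay between 0.877 and 2.20 at 10 nM and between 1.39 and 1.81 at 1 µM, while CYP1A1 itself ran from 85.2 to 389 FPKM and CYP1A2 from 47.1 to 260 FPKM among the 1 µM libraries. The mean log2 ratio of CYP1A1 to CYP1A2, with 1 added to each, was 0.19 ± 1.23 (SD, n = 5) in the controls, 0.86 ± 0.99 at 100 pM, 0.26 ± 0.51 at 10 nM and 0.64 ± 0.14 at 1 µM. None of the 3 differences from control passed (exact permutation test, p between 0.381 and 0.921), nor did that between 10 nM and 1 µM (difference 0.38, p = 0.167). Without 10 nM replicate 5 that difference was 0.59 with an exact p of 0.00794, and without control replicate 1 the difference of 1 µM from control was 0.91 with an exact p of 0.0397. The main CYP1A1 transcript and that of CYP1A2 share a longest exact run of 40 bases and 0 of 2534 stretches of 75 bases.

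Against CYP1B1 the balance moved. The mean log2 ratio of CYP1A1 to CYP1B1 was -2.72 ± 0.97 in the controls, so that CYP1B1 was the higher in all 5, and 1.18 ± 1.09 at 10 nM and 1.38 ± 1.54 at 1 µM, where CYP1A1 was the higher in 4 of 5 libraries at each concentration. Both differences from control, 3.90 and 4.10, gave the smallest p that 5 libraries against 5 allow (exact permutation test, two-sided, p = 0.00794, Benjamini-Hochberg adjusted over 16 ratio comparisons 0.0318). With all transcripts assembled at each locus the differences were 3.37 and 2.87 (exact p = 0.00794 each). At 100 pM the ratio was -0.49 ± 2.70, and its difference from control, 2.23, did not pass (exact p = 0.135), but without 100 pM replicate 4 it was 3.08 with an exact p of 0.0317.

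**Figure D3:**
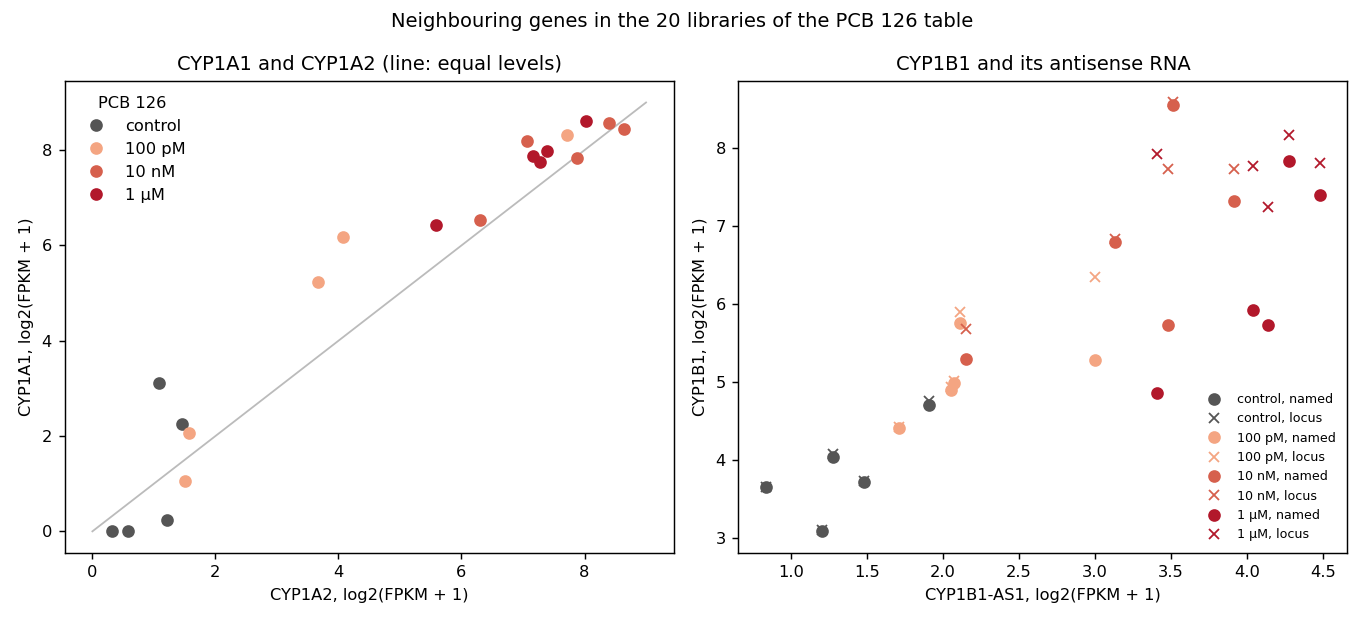
Log2(FPKM + 1) of CYP1A1 against CYP1A2 on the left, with a grey line of equal levels, and of CYP1B1 against CYP1B1-AS1 on the right, in the 20 control and PCB 126 libraries, coloured by concentration. At 10 nM the libraries lie on both sides of the line and at 1 µM all 5 lie above it, and the crosses, which count the whole assembled CYP1B1 locus, lie above the filled points for transcripts named CYP1B1 in several 10 nM and 1 µM libraries.

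CYP1B1 and its antisense RNA also start close together. The main CYP1B1 transcript, ENST00000610745, spans chr2:38067507-38076181 on the minus strand, and the main antisense transcript, ENST00000629547, begins at chromosome 2 position 38076266 on the plus strand, with 84 bases between them. Of the 35 antisense transcripts 25 do not overlap ENST00000610745 and 10 do. Libraries were made with a kit that marks strand, but whether strand was used in counting is not given in the sources used here, so reads of the overlapping part cannot be assigned with certainty. Only the 25 without overlap with ENST00000610745 were then counted, a choice made after seeing the data. With these the antisense RNA had log2 fold changes of 1.82 at 10 nM (limma, adjusted p = 0.00329) and 2.71 at 1 µM (adjusted p = 7.9e-06). The named CYP1B1 transcripts together reach position 38109902, so that count still includes antisense transcripts that begin within their span.

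The level assigned to CYP1B1 depended on which assembled transcripts were counted. A pair of transcripts without a gene name, MSTRG.21919.15 and MSTRG.21919.16, was assembled at the same locus and on the same strand. MSTRG.21919.15, which is 10321 bases long and spans chr2:38061849-38076147, reached at most 0.591 FPKM in the controls, and 3.24, 147, 97.7, 9.03 and 214 FPKM in 1 µM replicates 1 to 5. ENST00000610745 was 163, 49.1, 39.1, 218 and 22.9 FPKM in the same libraries. The 3 libraries with the least of the named transcript at 1 µM held the most of the unnamed one. Together the pair of unnamed transcripts took between 20.4% and 88.5% of the locus at 1 µM, against between 0.0528% and 2.28% in the controls (exact permutation test, two-sided, p = 0.00794, adjusted over 10 share comparisons 0.0794).

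Summed over the whole locus, the 1 µM libraries held 222, 217, 150.1, 286 and 242 FPKM. Their mean was 223 ± 49.1 FPKM (SD, n = 5), a coefficient of variation of 22%, where the transcripts named CYP1B1 alone gave 107 ± 86.2 FPKM, or 80.6%. At 10 nM the locus held 211, 210.2, 50.25, 112.5 and 382 FPKM and varied by 65.1%, against 92.8% for the named transcripts. With the locus sum the log2 fold change of CYP1B1 was 3.45 at 10 nM (limma, adjusted p = 6.67e-05) and 3.92 at 1 µM (adjusted p = 4.17e-06), and the difference from 10 nM to 1 µM turned from -0.39 to 0.47, neither with a call. Up to 0.375 FPKM of the locus sum came from transcripts of other genes.

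**Figure D4:**
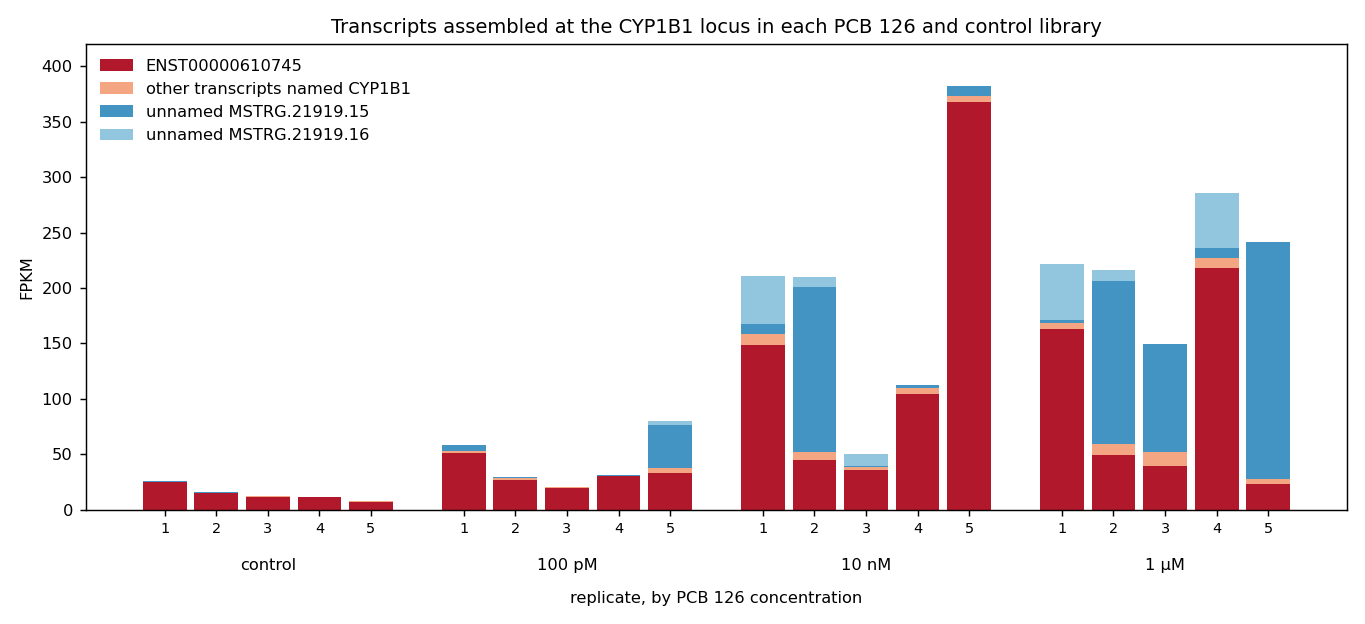
FPKM of the transcripts assembled at the CYP1B1 locus, stacked, in each of the 20 control and PCB 126 libraries (replicates 1 to 5 of each concentration along the horizontal axis). The unnamed MSTRG.21919.15 (blue) is the largest part in 1 µM replicates 2, 3 and 5, 10 nM replicate 2 and 100 pM replicate 5, and the full bars at 1 µM lie between 150.1 and 286 FPKM.

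The ratio of CYP1B1 to its antisense RNA followed the same choice. With named transcripts the mean log2 ratio was 2.50 ± 0.42 in the controls, 3.50 ± 1.01 at 10 nM and 2.28 ± 0.92 at 1 µM, and neither difference from control passed (exact permutation test, p = 0.0556 and 0.667), although without 10 nM replicate 2 the difference at 10 nM was 1.31 with an exact p of 0.00794. From 10 nM to 1 µM the ratio with named transcripts differed by -1.22 (exact p = 0.0714), and by -1.53 without 10 nM replicate 2 (exact p = 0.0476) and -1.54 without 1 µM replicate 4 (exact p = 0.0397). With the whole locus it was 2.52 ± 0.43, 4.07 ± 0.62 and 3.71 ± 0.55, and both differed from control, by 1.55 and 1.19 (exact permutation test, two-sided, p = 0.00794 and adjusted p = 0.0318 each).

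Single transcripts were tested by limma over 21181 transcripts. Beside the main ENST00000395048, at 6.98 ± 1.03 at 10 nM (limma, adjusted p = 0.00816), CYP1A1 had ENST00000379727 at 4.34 ± 0.74 (adjusted p = 0.029), ENST00000567032 at 4.10 ± 0.74 (adjusted p = 0.0365) and the unnamed MSTRG.13869.6 at 5.18 ± 0.72 (adjusted p = 0.00557). The other tested transcripts of the CYP1A1 locus did not pass at 10 nM. They were ENST00000562201, ENST00000564596, ENST00000566503 and the unnamed MSTRG.13869.1, with limma adjusted p between 0.363 and 0.973. Of these only ENST00000564596 passed at 1 µM (2.35 ± 0.46, adjusted p = 0.0188). At 10 nM 0.0472% of all transcripts passed in the higher direction and at 1 µM 0.307%. ENST00000395048 and ENST00000379727 share 96.9% of their stretches of 75 bases, so their split is an estimate. ENST00000610745, the main coding transcript of CYP1B1, did not pass at 10 nM (2.83 ± 0.61, adjusted p = 0.122) or 1 µM (2.33 ± 0.61, adjusted p = 0.113), while the low ENST00000492443, annotated without a defined coding sequence, passed at both (2.22 ± 0.38, adjusted p = 0.029, and 2.72 ± 0.38, adjusted p = 0.0014). The unnamed MSTRG.21919.15 was 3.25 ± 1.15 higher at 10 nM (adjusted p = 0.788) and rose by 5.20 ± 1.15 at 1 µM (adjusted p = 0.0401). The unnamed MSTRG.21919.16 passed at neither (limma, adjusted p = 0.951 and 0.358). The antisense ENST00000629547 had an adjusted p of 0.0973 at 10 nM and passed at 1 µM (2.84 ± 0.40, adjusted p = 0.0014).

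The share of each gene's named sum taken by its main transcript was compared between 10 nM and 1 µM by exact permutation test, and no difference passed. It was 66.9 ± 19.1% and 75.1 ± 7.34% (SD, n = 5) for ENST00000395048 (exact p = 0.397), 93.7 ± 4.37% and 86.6 ± 9.57% for ENST00000610745 (exact p = 0.159) and 63.4 ± 6.03% and 70.9 ± 12.7% for ENST00000629547 (exact p = 0.302).

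The herbicide comparisons used the same 5 control libraries. CYP1A1 was listed at 0 in 4 of 5 libraries with 10 µg/L glyphosate, 3 of 5 with 1 mg/L and 3 of 5 with Roundup, and the highest of the 15 held 0.280 FPKM. With 0.1 g/L glyphosate it was 0, 0.185, 6.49, 0.0454 and 2.42 FPKM, within the control range of 0 to 7.69 FPKM. The moderated F test over the herbicide groups and control gave CYP1A1 an unadjusted p of 0.0531 and an adjusted p of 0.995 by limma, and no herbicide contrast passed. Against control its log2 difference was -1.11 ± 0.48 with 10 µg/L glyphosate, -1.03 ± 0.48 with 1 mg/L and -1.08 ± 0.48 with Roundup (limma, unadjusted p = 0.0294, 0.0413 and 0.0331, adjusted p between 0.902 and 1, exact permutation p = 0.167, 0.286 and 0.167). The zeros are those of the named transcripts. With the 2 unnamed transcripts of the locus added, every library was above 0, between 0.05002 and 0.739 FPKM in these 3 groups and between 0.160 and 7.875 FPKM in the controls, and the unnamed ones made up a mean of 98.3%, 84.3% and 93.9% of the locus in the 3 groups and 56.8% in the controls. The locus sum differed from control by -1.04, -0.90 and -0.94 on the log2 scale (exact permutation p = 0.119, 0.206 and 0.151). The deposited FPKM values hold no counts, so no upper limit was worked out for a value of 0.

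CYP1A2 lay between 0.203 and 2.10 FPKM over the 20 herbicide libraries, CYP1B1 between 6.00 and 24.5 FPKM and CYP1B1-AS1 between 0.753 and 2.41 FPKM, and every one of these groups overlapped its controls. CYP1B1 had an adjusted p of 0.995 in the F test. CYP1A2 and CYP1B1-AS1 failed the variance filter in the herbicide table and were compared by exact permutation tests alone, which gave p between 0.302 and 0.976 for CYP1A2 and between 0.579 and 1 for CYP1B1-AS1 against control. No gene of 9533 passed in any herbicide contrast (0%), where between 84 and 165 had an unadjusted p under 0.05 against control. Roundup and glyphosate at the same 10 µg/L differed in mean log2 level by 0.12 for CYP1A2 (exact permutation test, p = 0.627) and by -0.13 for CYP1B1-AS1 (exact p = 0.587), and by limma by 0.03 ± 0.48 for CYP1A1 and -0.15 ± 0.32 for CYP1B1.

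Over the 25 libraries without PCB 126, CYP1B1 and CYP1B1-AS1 varied together, with Pearson r of 0.616 and Spearman rho of 0.585 (permutation p = 0.00124 and 0.00243, Benjamini-Hochberg adjusted over 6 pairs 0.00483 and 0.0146), and r of 0.6 without the 2 libraries farthest from the median. Both also varied with the library's total FPKM, with r of 0.694 and 0.621, and after scaling each library by its 75th percentile the r between them was 0.381 (permutation p = 0.0608). The pair CYP1A1 and CYP1A2 had r of 0.509 and rho of 0.503 (permutation p = 0.00809 and 0.0112, adjusted 0.0162 and 0.0337), with r of 0.388 without the 2 farthest libraries. CYP1A1 and CYP1B1, which lie on different chromosomes, had r of 0.595 and rho of 0.404 (permutation p = 0.00161 and 0.0471, adjusted 0.00483 and 0.0858), with r of 0.432 without the 2 farthest libraries and 0.654 after the scaling. Most CYP1A1 values there were at or near 0, so both of its pairs rest on few libraries. The r of the other 3 pairs, between 0.265 and 0.41, did not pass after adjustment (adjusted p between 0.0634 and 0.202).

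Of the other genes of the pathway, the receptor itself and its partners did not pass at any concentration (0 of 6 reported, AHR, ARNT, ARNT2, HSP90AA1, HSP90AB1 and PTGES3). Of all tested genes 0% passed in either direction at 100 pM, 0.205% at 10 nM and 1.87% at 1 µM, so a count of 0 among so few genes says nothing particular about them. AHR was between 42.7 and 83.1 FPKM in the controls and between 11.5 and 63 FPKM at 1 µM, a log2 difference of -0.71 ± 0.34 (limma, adjusted p = 0.369). Of the 2 feedback genes TIPARP, an ADP-ribosyltransferase that limits AhR activity, rose by 2.32 ± 0.42 at 10 nM (adjusted p = 0.00841) and by 3.21 ± 0.42 at 1 µM (adjusted p = 4.8e-05), from between 2.3 and 5.84 FPKM in the controls to between 20.9 and 73.6 FPKM at 1 µM. AHRR, the AhR repressor, was 0.20 ± 0.29 and 0.21 ± 0.29 higher without a call.

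Of 7 further known AhR targets, NQO1 and CYP2S1 failed the variance filter. Of the other 5, 2 rose at 10 nM and 3 at 1 µM, where 0.144% and 0.646% of all tested genes did. ALDH3A1, an aldehyde dehydrogenase, rose by 1.52 ± 0.28 and 1.93 ± 0.28 (limma, adjusted p = 0.0091 and 0.000173). SERPINB2, a plasminogen activator inhibitor, was between 0.353 and 1.71 FPKM in the controls and between 19.4 and 61 FPKM at 1 µM, and rose by 2.96 ± 0.45 and 4.45 ± 0.45 (adjusted p = 0.00127 and 2.3e-06). UGT1A1, which shares exons with UGT1A6 so that their split is uncertain, passed at 1 µM alone (1.88 ± 0.46, adjusted p = 0.0276). UGT1A6 and NFE2L2 did not pass. The medians of the tested targets were 1.52 at 10 nM and 1.88 at 1 µM, against -0.21 and -0.26 for all genes. The list was chosen with earlier results of these data known, so its counts and medians are only a description.

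The enzymes that supply electrons and haem to cytochromes P450 did not pass (0 of 4, POR, CYB5A, CYB5R3 and ALAS1), nor did 3 other P450s of the liver, CYP3A4, CYP2E1 and CYP2B6, where at most 1.87% of all genes passed, so these counts too say nothing particular about them. CYP2B6 was 1.53 ± 0.43 higher at 1 µM (limma, adjusted p = 0.0677), and CYP2E1 was 0.90 ± 0.30 lower (adjusted p = 0.145). On the FPKM scale, which is per length, the median level of CYP1A1 was 292 at 10 nM and 234 at 1 µM, and that of CYP3A4 was 3.22 and 5.2.

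Across the 20 control and PCB 126 libraries, the gene most like CYP1A1 in log2(FPKM + 1) was CYP1A2, and the reverse, with a Pearson r of 0.969. Next to them came ALDH1A3, with r of 0.9 to CYP1A1 and 0.922 to CYP1A2. The genes most like CYP1B1 were ALDH3A1 and CYP1B1-AS1, both at 0.822, and the gene most like CYP1B1-AS1 was MB21D2, at 0.9695, where CYP1B1 had rank 48. CYP1A1 had r of 0.782 with CYP1B1 and 0.86 with CYP1B1-AS1. These values describe libraries that share the PCB 126 series and their differences in total FPKM. Those of CYP1B1 used its named transcripts alone, and they were not worked out with the whole locus counted.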

How the data were processed

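Per the labels, RNA of differentiated HepaRG cells was depleted of ribosomal RNA and made into libraries with a directional kit. The authors aligned reads to GRCh38 with HISAT2 and assembled transcripts with StringTie, and deposited FPKM values per transcript in 2 tables, 1 for PCB 126 and 1 for the herbicides, with the same 5 control libraries. Some columns of these deposited values were treated as a score, because a few entries (4 for PCB 126 and 6 for the herbicides) lie just below 0, and these were set to 0. Depth was not used here, since the files hold no counts, and the sum of FPKM per library lay between 255292 and 513059. FPKM of transcripts with a gene's name were summed, and genes with a variance of FPKM above 1 were tested with limma 3.58.1 in R 4.3.3 on log2(FPKM + 1), all groups of a table in 1 fit, with Benjamini-Hochberg adjustment over all genes or transcripts and a threshold of 0.05. Single values, ratios and shares were compared with exact two-sided permutation tests of 5 libraries against 5, for which the smallest p is 0.00794, and correlations with 100000 permutations. In simulated data 98.5% of 200 genes with a log2 change of 3 and 43% with a log2 change of 1 were recovered at 1 µM over 9755 genes, with 7.08% and 4.44% of calls false. There each gene was drawn on its own from a normal distribution with its own SD. Shifts that many genes of a library share were left out, so these rates need not hold for the real libraries. The genes, lists and tests were chosen with earlier results of these data known. Named genes were the 4 members with their transcripts, the 5 genes most like each member, and lists of pathway genes and other liver P450s, of which 19 and 3 are given, since 1 gene of each is not reported here. Alternatives were another pseudocount, filter, scaling, model or set of transcripts, a replicate block, and libraries left out. Counting only antisense transcripts that do not overlap ENST00000610745 was added after seeing the data. Positions are those of the files, sequences are from RefSeq and the GRCh38 genome, and no CYP1B1 promoter was used here.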

Additional observations from a re-analysis of the deposited data

Results flagged for a closer look

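In 6 of 32 groups of 5 libraries 1 library stood apart from the other 4 by Dixon's criterion (gap over range above 0.71, on FPKM). Chance flags about 1 in 20 groups of normally distributed values, a rate that does not apply to skewed FPKM or to groups mostly at 0, so the 6 are a description. Of these, 3 were the same library, 100 pM PCB 126 replicate 5, which held 319 FPKM of CYP1A1 (next highest 71.0), 208 FPKM of CYP1A2 (next highest 15.9) and 7.00 FPKM of CYP1B1-AS1 (next highest 3.32). On the log2(FPKM + 1) scale of the tests its gap over range was 0.297, 0.585 and 0.689, all under 0.71. Its CYP1B1 value did not stand apart, but 52.4% of its CYP1B1 locus lay in the unnamed transcripts, against at most 9.26% in the other 4 libraries at 100 pM. The source of this library's difference was not tested. The other 3 were values of CYP1A1 near 0, at 0.0408 FPKM with 10 µg/L glyphosate, 0.280 FPKM with 1 mg/L glyphosate and 0.118 FPKM with Roundup, in groups where most libraries are listed at 0.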

How the results depend on the processing

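Of the alternatives to the results listed for comparison, 788 kept both direction and side of the threshold, 37 turned direction, 14 gained and 6 lost a call. The calls of CYP1A1, CYP1A2 and CYP1B1-AS1 against control at 10 nM and 1 µM held under every alternative that was run. Those of CYP1B1 were lost without the variance filter and with an ordinary linear model, at 2.89 (limma adjusted p = 0.203 and 0.115) at 10 nM and 2.51 (0.0939 and 0.0617) at 1 µM, where in the first case more genes were tested. For 10 nM against 100 pM the fit of both tables together called CYP1A1 (3.35, adjusted p = 0.0498) and CYP1A2 (3.95, adjusted p = 0.000896), and quantile normalization called CYP1A2 (4.32, adjusted p = 0.0495). Counting the whole locus turned CYP1B1 from 10 nM to 1 µM to 0.47, its log2 ratio to CYP1B1-AS1 at 1 µM to 1.19, that of CYP1A1 to CYP1B1 from 10 nM to 1 µM to -0.50 and the share of ENST00000395048 to -0.10 points, and took the ratio of CYP1B1 to CYP1B1-AS1 at 10 nM to 1.55, with an exact p of 0.00794. With 75th-percentile scaling that ratio was 1.02 (exact p = 0.0476), CYP1A1 with 0.1 g/L glyphosate was 0.0092, CYP1B1-AS1 was 0.041 with 10 µg/L and 0.087 with 0.1 g/L, and over the libraries without PCB 126 r was 0.145 for CYP1A2 with CYP1B1, -0.069 for CYP1A2 with CYP1B1-AS1 and 0.381 for CYP1B1 with CYP1B1-AS1. A pseudocount of 0.1 gave CYP1B1-AS1 with 10 µg/L glyphosate 0.0018, and without the libraries apart on the first component CYP1B1 in Roundup against glyphosate was 0.054. The cause of these changes was not tested.

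With 1 library left out in turn, 10 nM against 100 pM ranged from 2.47 to 4.29 for CYP1A1 and from 3.40 to 4.95 for CYP1A2. From 10 nM to 1 µM CYP1A1 ranged from -0.53 to 0.14 and CYP1B1 from -0.76 to 0.067. Against control, CYP1A1 with 0.1 g/L glyphosate ranged from -0.60 to 0.38, and CYP1B1 from -0.13 to 0.29 with 0.1 g/L and from -0.38 to 0.023 with 1 mg/L. CYP1A2 ranged from -0.16 to 0.15 with 1 mg/L and from -0.081 to 0.21 with 0.1 g/L. CYP1B1-AS1 ranged from -0.13 to 0.14 with 10 µg/L, from -0.094 to 0.17 with 1 mg/L, from -0.14 to 0.13 with 0.1 g/L and from -0.27 to 0.0076 with Roundup. In Roundup against glyphosate, CYP1A1 ranged from -0.0050 to 0.037 and CYP1A2 from -0.027 to 0.24. The log2 ratio of CYP1A1 to CYP1A2 ranged from -0.22 to 0.53 for 10 nM and from 0.15 to 0.91 for 1 µM against control, and from 0.26 to 0.59 between them. That of CYP1A1 to CYP1B1 ranged from 1.34 to 3.08 for 100 pM against control and from -0.21 to 0.79 from 10 nM to 1 µM. That of CYP1B1 to CYP1B1-AS1 ranged from 0.62 to 1.31 for 10 nM against control and from -1.54 to -0.83 from 10 nM to 1 µM.

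Replicates are numbered by the run of library numbers in the titles, which no label ties to a shared culture or day. Among controls and PCB 126, 7 of 30 pairs of libraries of 1 run had a correlation of deviations over 0.1. Among controls and herbicides 19 of 50 pairs did. The medians were 0.0634 and 0.0688, against -0.0182 and -0.0188 for libraries of different runs, so libraries of 1 run were slightly more alike. The main fits and the exact permutation tests did not take the runs into account. The fit with the run as a replicate block changed no call of the 4 genes, with adjusted p between 0.000395 and 0.00573 at 10 nM and between 2.41e-05 and 0.00509 at 1 µM. A filter on mean FPKM left no value for CYP1A1 and CYP1A2 in the herbicide table. No counts were used, so no counting limit was worked out for values near 0.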
